A study of Mus musculus with 4 samples.

Results

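The CCN matricellular family was described in cells sorted for a bone-forming phenotype from mouse bone marrow. Its members were the probe sets annotated to exactly 1 of the genes Ccn1 to Ccn5 (older symbols Cyr61, Ctgf, Nov, Wisp1 and Wisp2), which gave 10 of the 45037 probe sets tested and 5 of 18193 genes. There were 4 probe sets for Ccn1, 1 for Ccn2, 2 each for Ccn3 and Ccn4 and 1 for Ccn5, and all 10 had values on all 4 arrays. None was left out by a filter on low values, since no such filter was used. The family was picked because Ccn2 is among the largest differences between the areas compared here, so the differences between areas are given below as a description, with no test for any member.

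The cells came from the marrow of adult NOD.CB17-Prkdc scid mice (NOD/SCID), an immunodeficient strain used as recipients in transplantation, and this strain was common to both groups. They were sorted as negative for the blood lineage antigens, CD45, CD31 and Sca1 and positive for CD51, the integrin alpha v chain. The first group came from the trabecular bone area, where bone is spongy, and the second from the long bone area, with 2 arrays each that the submitters call biological replicates. The labels used here do not say which mice or how many gave each sample, nor the age of the mice beyond adult. Where p-values are given for other genes they therefore measure only the spread between these samples, which may be technical.

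CCN proteins are secreted, modular proteins of the extracellular matrix that act less as structural parts than as signals. They bind integrins, heparan sulphate proteoglycans and the receptor LRP1, and they also bind growth factors such as BMPs, TGF-beta and VEGF. Ccn1 and Ccn2 are immediate response genes and standard targets of the mechanosensitive YAP and TEAD transcription factors, and Ccn2 is also induced by TGF-beta. In the skeleton Ccn2 is known for its role in growth plate cartilage and its angiogenesis, and Ccn4 for its expression in osteoblasts and their precursors.

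The deposited values were taken as log2 expression against a zero point, the 4-array median of each probe set. They hold differences between arrays, and of levels no more than a coarse band. In each probe set the median is the midpoint of the middle values, and these are therefore equal in size and opposite in sign. The number steps left in the values are those of log2 levels of 8 and above for the probe sets of Ccn2 and Ccn5 and for 1 of the 4 Ccn1 probe sets, and those of 4 to 8 for the other probe sets of the family. A single array in a lower band can go unread in this way, and a band cannot rank a family member above another. In bulk samples of this kind, fewer cells of a type and less RNA per cell cannot be told apart.

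Long bone array 2 stood apart from the other 3 arrays. The SD of its log2 values over all probe sets was 0.483, against 0.271 to 0.311 on the other arrays, and the 5' minus 3' difference of its Gapdh control was -1.16, against -0.09 to 0.31. The 9 hybridisation control probe sets, for transcripts spiked into every sample, all read lower on each trabecular array than on either long bone array. Their median log2 difference was -0.39. Setting the median of these controls to 0 on each array raised the median difference of all genes by 0.40. All 5 CCN genes were still lower in the trabecular area under that scaling, at -1.66 for Ccn1, -3.47 for Ccn2, -0.20 for Ccn3, -0.27 for Ccn4 and -0.0195 for Ccn5. The part of these array differences in the results below was not tested. Of the 9 osteoblast markers measured, 4 (Alpl, Col1a1, Col1a2 and Sparc) had a probe set in the band of 8 and above, as had 7 of 12 blood cell markers, Ptprc (CD45) among them. Over all probe sets, 14527 of 45037 were in that band, a count by probe set and not by gene. A band is no call of presence, so the labelled cell type could not be checked beyond these counts.

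All 5 CCN genes had lower mean values in the trabecular area than in the long bone area, and 4 of them, all but Ccn5, did not overlap between the areas. By size they fell into Ccn2, 14.6-fold lower, Ccn1, 4.19-fold lower, and a group of Ccn4, Ccn3 and Ccn5, which were 1.59-fold, 1.52-fold and 1.34-fold lower. No overlap in the lower direction held for 21.4% of all genes and no overlap in the higher direction for 29.9%. A difference of at least 2-fold with no overlap held for Ccn1 and Ccn2 and for 1.17% of all genes in the lower direction. By probe set, 9 of the 10 were lower with no overlap, as were 26.2% of all probe sets. These shares are background only, since the family was picked with this contrast in view. With the hybridisation controls at 0, Ccn3 and its probe sets also overlapped, as did the Ccn1 probe sets 1416039_x_at and 1438133_a_at. Under that scaling 390 of 18193 genes were lower with no overlap and 14415 were higher. The median log2 difference of the 5 genes was -0.67, and that of all genes was 0.03.

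**Figure D1:**
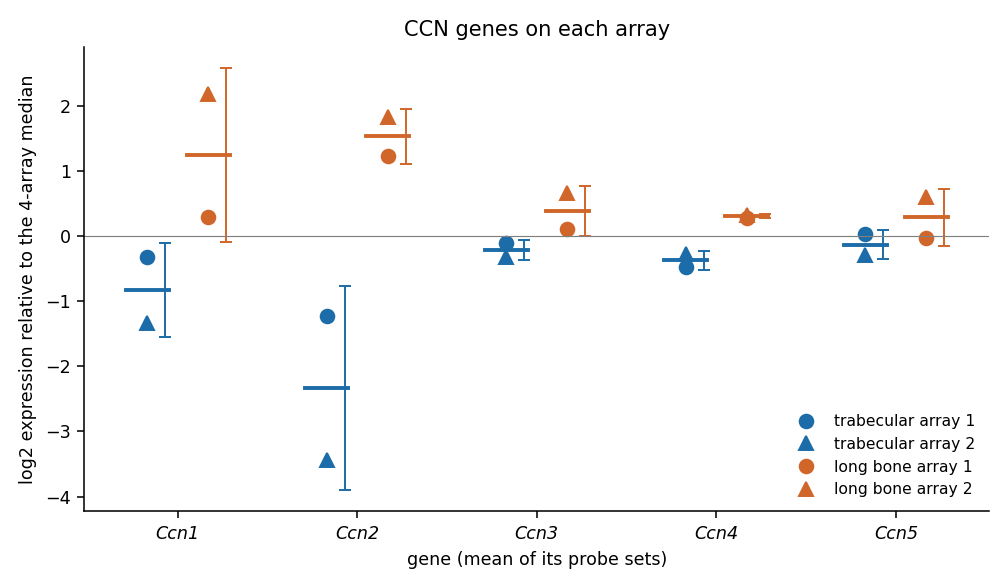
Log2 expression of Ccn1 to Ccn5 relative to the 4-array median (y axis), each gene as the mean of its probe sets, with trabecular arrays in blue left of long bone arrays in orange. Circles are array 1 and triangles array 2, horizontal bars are means and whiskers are SDs (n = 2 each). Ccn2 lies at -2.34 ± 1.56 over trabecular arrays and 1.53 ± 0.42 over long bone arrays, while Ccn5 overlaps.

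Ccn2, the connective tissue growth factor, had values of -1.23 and -3.44 on trabecular arrays 1 and 2, against 1.23 and 1.83 on long bone arrays 1 and 2. Both trabecular arrays were low, array 2 far more so, and the gap between the nearest arrays of the areas was 2.47. The mean was -2.34 ± 1.56 over trabecular arrays and 1.53 ± 0.42 over long bone arrays (SD, n = 2 each), a log2 difference of -3.87. Only 5 of 18193 genes had a lower difference. The trabecular pair was 2.21 apart and the long bone pair 0.60. The difference was -2.76 without trabecular array 2 and -4.97 without trabecular array 1, while leaving out long bone array 1 or 2 gave -4.17 or -3.57. With a single probe set, Ccn2 has no second reading on these arrays.

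Ccn1, a close relative of Ccn2 that binds integrins and drives adhesion and angiogenesis, had mean values over its 4 probe sets of -0.32 and -1.33 on trabecular arrays 1 and 2, against 0.30 and 2.18 on long bone arrays 1 and 2. The areas did not overlap, but array 2 of each area held the extreme value and the arrays numbered 1 lay 0.62 apart. The mean was -0.83 ± 0.72 over trabecular arrays and 1.24 ± 1.33 over long bone arrays (SD, n = 2 each), a log2 difference of -2.07. The spread in the long bone area was the larger one here, with 1.89 between its arrays. Without long bone array 2 the difference was -1.12, and without long bone array 1 it was -3.01. Leaving out trabecular array 1 gave -2.57 and leaving out trabecular array 2 gave -1.56.

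The 4 Ccn1 probe sets gave log2 differences from -2.44 to -1.86, each with no overlap, so the size of the difference did not rest on any single one. They disagreed on the trabecular pair. Probe set 1416039_x_at read -0.13 and -1.91 on trabecular arrays 1 and 2, against 0.13 and 2.72 on long bone arrays 1 and 2. Probe set 1438133_a_at read -0.13 and -2.06 in the trabecular area, against 0.13 and 1.74 in the long bone area. The other two probe sets, which the annotation assigns to the same sequence record, read closer together. Probe set 1442340_x_at read -0.61 and -0.51 in the trabecular area, against 0.51 and 2.22 in the long bone area. Probe set 1457823_at read -0.41 and -0.85 in the trabecular area, against 0.41 and 2.05 in the long bone area. All 4 put long bone array 2 highest, while 3 of the 4 put trabecular array 2 lowest, 1442340_x_at being the exception. Names ending in _x_at mark sets in which some probes may also bind other transcripts, and without them the Ccn1 difference was -1.95.

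**Figure D2:**
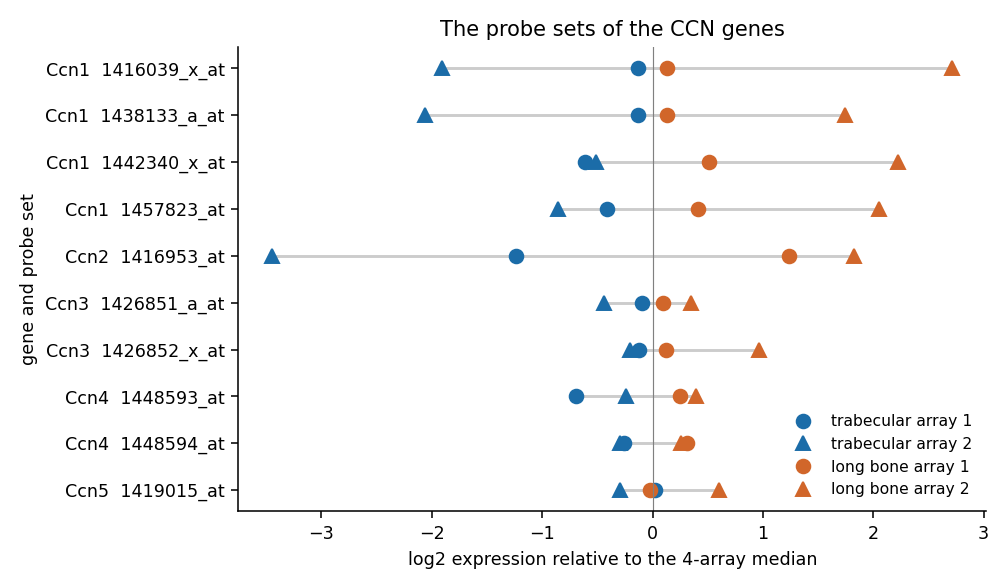
Log2 expression relative to the 4-array median (x axis) for each of the 10 CCN probe sets (rows), with trabecular arrays in blue, long bone arrays in orange, circles for array 1 and triangles for array 2. The grey line spans the 4 arrays. In 9 of the 10 rows the blue points lie left of both orange points, the exception being Ccn5.

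The Ccn1 promoter is shown because Ccn1 is a textbook target of TEAD factors and its window was the one found among the members in the RefSeq promoter table (GRCm38.p6), which covers 250 bases before to 50 after a gene's start. It lies at chr3:145649936-145650235 on the minus strand and is written 5′ to 3′ along the gene. Capitals mark matches on either strand to the TEAD core GGAATG (reverse complement CATTCC), to the core of the cAMP response element, TGACGT (reverse complement ACGTCA) and to the TATA box TATAAA.
Ccn1: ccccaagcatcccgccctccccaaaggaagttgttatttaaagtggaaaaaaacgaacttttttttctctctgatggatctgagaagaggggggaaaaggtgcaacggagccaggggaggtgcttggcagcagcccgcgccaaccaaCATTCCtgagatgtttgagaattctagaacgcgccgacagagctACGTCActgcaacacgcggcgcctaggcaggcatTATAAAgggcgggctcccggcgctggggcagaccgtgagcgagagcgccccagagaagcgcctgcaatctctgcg

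The 3 matches do not overlap each other, and each of these motifs was found once. The TEAD core began 103 bases before the start on the minus strand of the gene, and 14.7% of 32851 windows in the table held it on either strand. The cAMP response core began 59 bases before the start and was held by 7.51% of windows, and the TATA box began 25 bases before the start and was held by 13.6%. The SMAD motif CAGACA, searched on both strands, was not in this window and was in 21.0% of all windows. Letters that match a motif are a description of the sequence and no evidence of binding. Of the 14 other YAP target genes with a window in the table, 6 held the TEAD core.

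Ccn4, first described as a gene induced by Wnt1 and known in bone for promoting osteoblast differentiation, was the member whose difference moved least when an array was left out. Its values were -0.48 and -0.27 on trabecular arrays 1 and 2, against 0.28 and 0.32 on long bone arrays 1 and 2. The gap between the areas was 0.55. The mean was -0.37 ± 0.15 over trabecular arrays and 0.30 ± 0.03 over long bone arrays (SD, n = 2 each), a log2 difference of -0.67 that stayed between -0.78 and -0.57 with any array left out. Its probe sets gave -0.79 for 1448593_at and -0.56 for 1448594_at, both with no overlap, but they differed on the trabecular pair, which lay 0.45 apart in 1448593_at (-0.70 and -0.24) and 0.04 apart in 1448594_at (-0.26 and -0.29), where array 2 was the lower one.

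Ccn3, known for opposing the proliferative and fibrotic effects of Ccn2 in several tissues, had values of -0.11 and -0.33 on trabecular arrays 1 and 2, against 0.11 and 0.66 on long bone arrays 1 and 2. The areas did not overlap, with a gap of 0.22, and long bone array 2 stood highest. The mean was -0.22 ± 0.15 over trabecular arrays and 0.38 ± 0.39 over long bone arrays (SD, n = 2 each), a log2 difference of -0.60, which was -0.33 without long bone array 2. Probe set 1426851_a_at gave -0.49 and probe set 1426852_x_at gave -0.71.

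Ccn5, a member that lacks the C-terminal cystine knot module of its relatives, had values of 0.02 and -0.29 on trabecular arrays 1 and 2, against -0.02 and 0.60 on long bone arrays 1 and 2. The arrays numbered 1 were level across the areas and the order of the areas turned there, so the groups overlapped. The log2 difference of -0.42 was -0.11 without long bone array 2. Ccn6, which is not among the members, had 1 probe set with values of 0.38 and 0.09 on trabecular arrays 1 and 2, against -0.24 and -0.09 on long bone arrays 1 and 2, a log2 difference of 0.40.

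**Figure D3:**
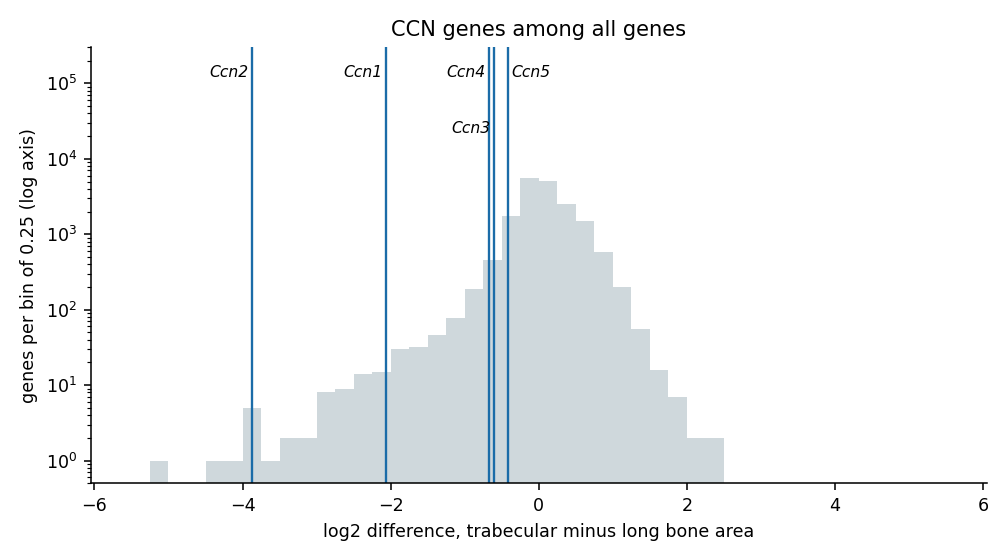
Number of genes per bin of 0.25 (y axis, log scale) by log2 difference, trabecular minus long bone area (x axis), over 18193 genes. Lines mark the 5 CCN genes, with Ccn2 at -3.87 and Ccn1 at -2.07 in the lower tail and Ccn4, Ccn3 and Ccn5 between -0.67 and -0.42.

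Ccn1, Ccn2 and Ccn3 shared an order of arrays. From low to high they ran from trabecular array 2 through trabecular array 1 and long bone array 1 to long bone array 2. That order was held by 11.3% of all genes, and by 107 of the 245 genes whose difference was below -1. The mean of the Ccn4 probe sets had its trabecular arrays the other way round, as did 1 of the 2 probe sets. Ccn1 and Ccn2 still differed in where their spread lay. The step between the trabecular arrays was the larger one for Ccn2 and the step between the long bone arrays the larger one for Ccn1. Likeness was measured as the Euclidean distance over the 4 array values, with 0 for identical profiles. The genes closest to Ccn2 were Mmp13 at 1.43, Fmod at 1.52, Nrep at 1.59, Htra1 at 1.61 and Clu at 1.65. Ccn1 itself was farther from Ccn2, at 2.51, with 36 genes closer. The genes closest to Ccn1 were Gja1 at 0.39, Apoe at 0.63, Ogn at 0.63, Gpx8 at 0.67 and Efemp1 at 0.72. Gja1, which encodes a connexin of gap junctions, had values of -0.37 and -1.25 on trabecular arrays 1 and 2, against 0.36 and 1.81 on long bone arrays 1 and 2, and it departed most from Ccn1 on long bone array 2. These likenesses rest on 4 arrays, on which many genes share long bone array 2 as their highest value.

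Values of marker genes, of the labelled bone-forming type and of other cell types, are set beside those of Ccn2 and Ccn1. None of the genes on these lists had a limma adjusted p under 0.05. At an unadjusted limma p under 0.05, 13 chondrocyte, 5 osteoblast, 2 reticular stroma, 4 fibroblast and tendon and 1 smooth muscle and pericyte markers were lower. On the blood cell and endothelial lists 0 were lower, and 0 were higher on any list. Over all genes these shares were 4.62% lower and 10.8% higher. With no overlap they were 21.4% lower and 29.9% higher. All 16 chondrocyte markers measured read lower on both trabecular arrays without overlap. With the hybridisation controls at 0, 13 of 16 were lower, 12 of them with no overlap, and 2 were higher with no overlap. The mean log2 value of the list was -1.12 and -1.02 on trabecular arrays 1 and 2, against 1.30 and 0.98 on long bone arrays 1 and 2. Comp, a cartilage matrix protein, differed by -5.18 and Col2a1, the main collagen of cartilage, by -3.77. The 9 osteoblast markers measured were all lower with no overlap, with list means of -0.85 and -0.48 in the trabecular area, against 0.46 and 0.87 in the long bone area. With the hybridisation controls at 0, 7 of these 9 were lower, 5 of them with no overlap, and 0 were higher with no overlap. The 10 reticular stroma markers had list means of 0.09 and -0.66 on trabecular arrays 1 and 2, against -0.16 and 2.00 on long bone arrays 1 and 2, so that this list, like Ccn1, stood far highest on long bone array 2. Adipoq at 4.49 and Esm1 at 4.71 were the highest of the list on that array. Unlike Ccn1, most of the list overlapped between the areas, with 3 of 10 lower and 0 higher with no overlap. The median difference of the list was -1.15, and -0.18 without long bone array 2. The means of the other cell type lists, except the chondrocyte list, were also highest on that array. They were 0.72 there for fibroblast and tendon, 0.61 for smooth muscle and pericyte, 0.33 for blood cell and 0.27 for endothelial markers. Of 11 fibroblast and tendon markers 6 were lower and 2 higher with no overlap, and of 9 smooth muscle and pericyte markers 5 were lower and 0 higher, with medians of -0.69 and -0.45 (-0.22 and -0.07 without long bone array 2). With the hybridisation controls at 0 these counts became 4 lower and 3 higher, and 1 lower and 2 higher. The medians were then -0.29 and -0.05. Lists of 12 blood cell and 8 endothelial markers had median differences of 0.01 each, and the order of the areas was mixed in both. With no overlap 1 blood cell marker was lower and 3 higher, and 2 endothelial markers were lower and 1 higher. With the hybridisation controls at 0 both medians were 0.41, and that of all genes was 0.43. Under that scaling 0 blood cell markers were lower and 7 higher with no overlap, and 0 endothelial markers were lower and 6 higher. Single genes departed from the medians of 0.01. The blood cell marker Pf4 was at 4.37 and the endothelial marker Vwf at 1.62 on long bone array 2. They differed by -2.14 and -0.76 with overlap (0.09 and 0.11 without that array). The part of any of these cell types in the CCN values was not tested.

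**Figure D4:**
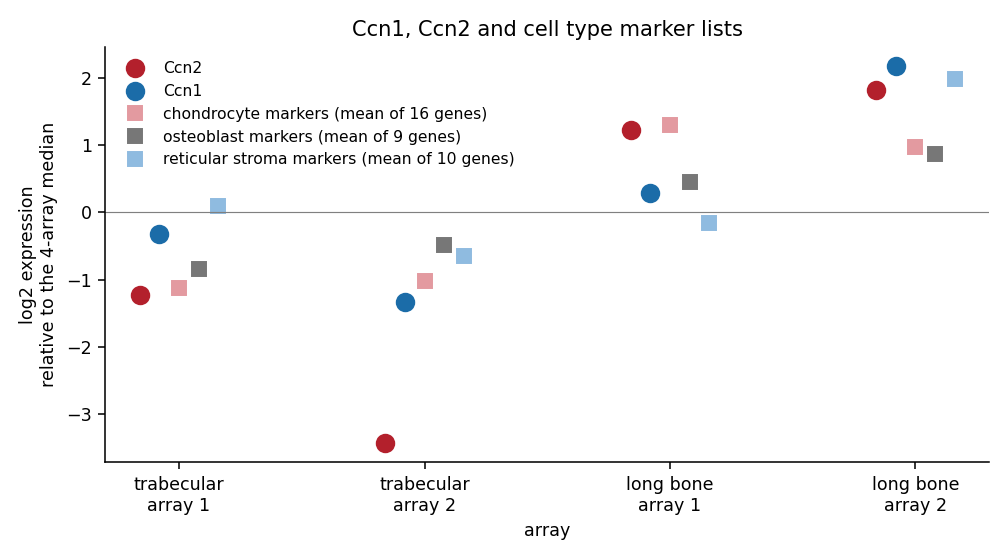
Log2 expression relative to the 4-array median (y axis) on each array (x axis), for Ccn2 and Ccn1 (circles) and for the means of the chondrocyte, osteoblast and reticular stroma marker lists (squares). Ccn2, Ccn1 and the chondrocyte and osteoblast markers are lower on both trabecular arrays than on either long bone array. All except the chondrocyte markers are highest on long bone array 2. The values there are 1.83 for Ccn2, 2.18 for Ccn1, 0.87 for osteoblast and 2.00 for reticular stroma markers.

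The genes around the family were compared with limma's moderated test on all 18193 genes. At a Benjamini-Hochberg adjusted p under 0.05 the share called was 0% of genes, with 0 genes called, while 2811 (15.5%) had an unadjusted p under 0.05, 840 of them lower (4.62%) and 1971 higher (10.8%). Hence no gene in the lists that follow passed the test, and their values are differences only. Their counts with no overlap stand beside shares of 21.4% lower and 29.9% higher over all genes. With 2 arrays against 2 an exact permutation test cannot go below p = 0.333 (two-sided).

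Of the 14 CCN receptors measured, 7 were lower and 3 higher in trabecular samples, each without overlap, 0 passed limma's adjusted threshold and 4 lower and 1 higher had an unadjusted p under 0.05. Their median difference was -0.16. With the hybridisation controls at 0 the median was 0.25, and 3 receptors were lower and 8 higher with no overlap. Lrp1, an endocytic receptor that binds Ccn2, had values of -0.90 and -0.93 on trabecular arrays 1 and 2, against 0.84 and 0.90 on long bone arrays 1 and 2. Both pairs were tight and far apart, with a log2 difference of -1.78 (SE 0.12, limma adjusted p = 0.12). The proteoglycan Sdc4, a co-receptor for matrix proteins, differed by -1.12, and the integrin chain Itgb5, a partner of integrin alpha v, by -0.96 (-0.48 without long bone array 2).

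The integrin alpha v chain itself, Itgav, which the sort selected on, differed by -0.13 (-0.08 without trabecular array 1), at -0.11 and -0.01 on trabecular arrays 1 and 2, against 0.03 and 0.11 on long bone arrays 1 and 2. Of the antigens sorted against, Ptprc (CD45) and Pecam1 (CD31) overlapped between the areas, at -0.34 and -0.02, and both signs turned without long bone array 1 and with the hybridisation controls at 0. Itgb3, its other CCN-binding partner, differed by 0.34 (0.17 without trabecular array 1), and Itga5, the fibronectin receptor chain, by -0.34. Itgb1, the common beta chain, and Itga6, which pairs with it to bind Ccn1, overlapped between the areas at 0.11 and 0.36 (0.02 and -0.00094 without long bone array 2). The Wnt co-receptor Lrp6 differed by -0.26, Igf2r by -0.18 with overlap (0.13 without long bone array 1), and the platelet chain Itga2b by -0.37 (-0.18 without long bone array 2). The leukocyte chains went the other way. Itgam, a chain of the monocyte and macrophage integrin that binds Ccn1 and Ccn2, differed by 1.68 (0.85 without long bone array 2), and its partner Itgb2 by 0.71 with overlap (0.06 without long bone array 2). Notch1, described as a partner of Ccn3, differed by 0.58 (0.18 without long bone array 2). The signs of Itgav, Itga5, Itga2b, Lrp6 and Igf2r turned with the hybridisation controls set to 0, to between 0.03 and 0.27.

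Of the 10 matrix and growth factor partners of CCN proteins, 5 were lower and 2 higher with no overlap, with a median of -0.74. None passed limma's adjusted threshold, and 5 lower and 0 higher had an unadjusted p under 0.05. Dcn (decorin), a small proteoglycan that binds Ccn2, differed by -2.19, Fn1 (fibronectin) by -1.88, the growth factor Bmp2 by -1.78 and Acan, the main cartilage proteoglycan, by -1.75 (-1.02 without long bone array 1). Acan is also on the chondrocyte list and Dcn on the fibroblast list. Vegfa, an angiogenic factor that Ccn2 can sequester, differed by 0.35 (0.15 without long bone array 1) and Tgfb1, an inducer of Ccn2, by 0.27 (0.13 without long bone array 2). Bmp4 and Igf1 overlapped between the areas, at -0.66 and -0.81. Without long bone array 2 they were at -0.01 and -0.12, and the median of the list was -0.23.

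The Hippo pathway controls YAP, and its genes went both ways. Of 14 genes measured, 8 were lower and 5 higher with no overlap, and 0 passed limma's adjusted threshold (3 lower and 2 higher at an unadjusted p under 0.05). The coactivators Wwtr1 (TAZ) and Yap1 differed by -0.72 and -0.45, and the DNA-binding partners Tead2, Tead1, Tead3 and Tead4 by -0.39, -0.25, -0.15 and -0.13. Wwtr1 had values of -0.33 and -0.42 on trabecular arrays 1 and 2, against 0.31 and 0.38 on long bone arrays 1 and 2, the tightest of these. Vgll4, a cofactor that competes with YAP for TEADs, also differed by -0.51. The kinases Lats2 and Lats1, which inactivate YAP, and their cofactors Mob1a and Mob1b differed by 0.60, 0.38, 0.53 and 0.35. With the hybridisation controls set to 0, Wwtr1 was at -0.32, Yap1 at -0.04 and Vgll4 at -0.11, while the signs of all 4 TEAD genes turned, to between 0.01 and 0.27. Without long bone array 2, Lats2 was at 0.40, Lats1 at 0.09, Mob1a at 0.19 and Tead2 at -0.17. Without trabecular array 2, Tead1 was at -0.14, Tead3 at -0.09 and Tead4 at -0.04.

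Other known YAP targets went both ways. Of 20 measured, 8 were lower and 3 higher with no overlap, 9 overlapped, and the median difference was -0.15. None passed limma's adjusted threshold, with 3 lower and 2 higher at an unadjusted p under 0.05. Ankrd1, often read together with Ccn1 and Ccn2 as a YAP target, overlapped between the areas at -0.06 (0.15 without long bone array 2). Amotl2, which binds YAP, differed by -0.26, and was at -0.06 without long bone array 2 and at 0.14 with the hybridisation controls at 0. The larger differences were those of Ccdc80, a matrix protein, at -1.24, Rbms3, an RNA-binding protein, at -1.13 (-0.61 without long bone array 2), Tgfb2 at -0.76 and Crim1, a transmembrane protein that binds BMPs, at -0.50 (-0.17 without long bone array 2). Lats2, itself a target, Gadd45a and Asap1 differed by 0.60, 0.52 and 0.34, with Lats2 at 0.40 without long bone array 2 and Gadd45a at 0.31 without long bone array 1. The median was 0.25 with the hybridisation controls set to 0 and -0.07 without long bone array 2.

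**Figure D5:**
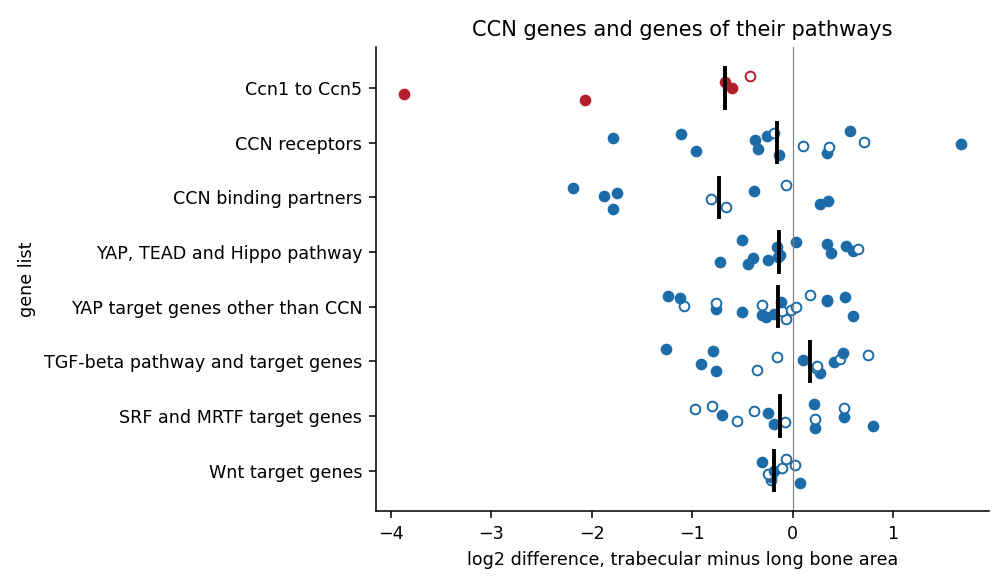
Log2 difference, trabecular minus long bone area (x axis), of each gene in the CCN family and in lists of related genes (rows). Filled points do not overlap between the areas, open points overlap, and black bars are medians. The medians are -0.67 for the CCN genes, -0.74 for binding partners, and between -0.19 and 0.17 for the other lists, whose signs turn with the hybridisation controls at 0 except for the TGF-beta list.

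TGF-beta, serum response factor (SRF) and Wnt signalling are other known inducers of CCN genes. In the TGF-beta list 4 of 14 genes were lower and 4 higher with no overlap, with a median of 0.17 (-0.04 without trabecular array 1). The latent TGF-beta binding protein Ltbp2 differed by -1.26 (-0.18 without long bone array 2), the co-receptor Tgfbr3 by -0.91 (-0.31 without it) and the target Pmepa1 by -0.79, while Skil, a target that represses the pathway, differed by 0.50 (0.09 without trabecular array 1) and the mediators Smad2 and Smad3 by 0.41 and 0.11 (Smad2 at 0.22 without long bone array 2). In the SRF list 3 of 14 were lower and 4 higher with no overlap, with a median of -0.13 (0.14 without long bone array 2 and 0.07 without trabecular array 2). Fhl2, a LIM domain cofactor, differed by -0.70, and the coactivator Mrtfa and the adhesion protein gene Vcl by 0.80 and 0.51, but these were -0.23, 0.12 and 0.24 without long bone array 2. In the Wnt target list 3 of 9 were lower and 1 higher with no overlap, with a median of -0.19. Axin2, the usual readout of Wnt signalling, differed by 0.07 (0.02 without trabecular array 2) and Znrf3, a feedback inhibitor, by -0.30 (-0.14 without long bone array 2 and 0.10 with the hybridisation controls at 0). None of the genes of these 3 lists passed limma's adjusted threshold, and the counts at an unadjusted p under 0.05 were 2 lower in the TGF-beta list and 0 in the other two lists.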

How the data were processed

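RNA of sorted mouse marrow cells was hybridised to Affymetrix arrays, 2 per area, and groups and replicate numbers came from the titles. The deposited values were taken as log2 expression, and the fold sizes rest on that reading. RMA was used, per the submitters' processing notes, which give no version. The file shows that each of 45101 probe sets was then centred on its 4-array median. The series text names a human array, while the probe sets carry mouse names. The sources used here give neither the log base nor the centring software. After leaving out 64 controls, 34945 of 45037 probe sets named a single gene in the annotation, 932 named several and 9160 named none. RefSeq gene IDs (GRCm38.p6) matched 34741, and 0 symbols changed. A gene was the mean of its probe sets.

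Areas were compared as trabecular minus long bone with limma 3.58.1 (R 4.3.3, lmFit and eBayes, all 4 arrays), with Benjamini-Hochberg adjustment and a threshold of 0.05. The members and lists were chosen with earlier results of these data known. The number of arrays limits the precision. Named list genes are up to 4 per list and direction with the largest differences and no overlap, with all receptors and the YAP and TEAD genes. Other list genes, and Ccn6, were named after their values were seen. Runx2, Bglap and Spp1 were among list genes not analysed here. Arrays left out, other scalings, other variance models, single probe sets and the replicate number as a block were tried as alternatives.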

Additional observations from a re-analysis of the deposited data

How the results depend on the processing

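No alternative turned the direction of a CCN gene, and 41 of 46 alternative values lay within 1 replicate SD of the reported one. That count is no measure of stability. With 2 arrays per area, leaving 1 out cannot move a difference beyond that SD, and the replicate block cannot move it at all. The values outside that SD were Ccn3 at -0.20, Ccn4 at -0.27 and Ccn5 at -0.0195 with the hybridisation controls at 0, which raised all genes by 0.40, and Ccn4 at -0.79 and -0.56 with each of its probe sets alone. With 1 array left out the log2 difference ranged from -3.01 to -1.12 for Ccn1, -4.97 to -2.76 for Ccn2, -0.87 to -0.33 for Ccn3, -0.78 to -0.57 for Ccn4 and -0.73 to -0.11 for Ccn5. Over all probe sets the count called was 281 with a trend in the prior variance, 1 with ordinary t statistics and 2 with the hybridisation controls at 0, against 0 in the reported fit, and it was 0 with any array left out. Over genes it was 40, 1 and 2857, against 0, and 0 to 1603 with an array left out, 1603 when long bone array 1 and 1 when long bone array 2 was left out. The count of non-overlapping probe sets with a 2-fold or larger difference was 2179 and became 5036 with the hybridisation controls at 0 and 2036 to 4746 with an array left out. At an unadjusted p under 0.05 there were 7325 probe sets (4017 higher and 3308 lower), against 19308 (18447 and 861) with the hybridisation controls at 0, 4831 (2192 and 2639) with ordinary t statistics, 2427 (1914 and 513) of the 14527 bright probe sets alone, those with the number steps of log2 levels of 8 and above, and 2673 to 12789 with an array left out. For genes the 2811 became 9538, 1763 and, with an array left out, 1015 to 5458. Fewer probe sets were tested among the bright ones. The cause of the other shifts was not tested. With the replicate number as a block 0 probe sets and 0 genes were called (5707 and 2450 at an unadjusted p under 0.05). The block leaves the CCN differences as they are by design, since each area holds both replicate numbers. The correlation of the deviations of same-numbered arrays was -0.18, and with crossed numbers, a block chosen after seeing the data, the counts called were 0 and 0. With 2 pairs the numbers were not taken as pairing the samples.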
